A study of Mus musculus with 6 samples.

Results

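The genes described are 10 members of the tumour necrosis factor (TNF) superfamily, 4 ligands (Tnf, Tnfsf10, Tnfsf13b and Tnfsf14) and 6 receptors (Tnfrsf1a, Tnfrsf1b, Tnfrsf14, Tnfrsf21, Cd40 and Fas). They were chosen by gene symbol, as every probe set of an Affymetrix array that the platform annotation assigns to one of these symbols, which gave 19 of 45101 probe sets and 10 of 18193 named genes. The samples were myeloid cells of femur and tibia marrow from female HdcGFP mice on a C57BL/6 background, whose cells fluoresce green where Hdc, which encodes the histamine-making enzyme histidine decarboxylase, is active. Cells positive for CD11b and Gr1 were sorted by the reporter into HdcGFP+/hi cells (GFP_plus, 3 arrays) and HdcGFP-/lo cells (GFP_min, 3 arrays), with no further treatment named. Both groups thus carried the reporter and both surface markers, and the groups differ by a sorting gate and not by genotype. No age is given, and whether each sample is another mouse is not stated, so the spread behind every p-value is that of the samples and may be technical. The description of GFP_min replicate b reads Gr1-negative, although its sorted-cell label is Gr1-positive.

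TNF superfamily ligands are mostly membrane-bound trimers, many of which are also released by proteases, and each binds one or several receptors. The receptors either recruit TRAF adaptors and activate NF-κB and MAP kinases, or carry a death domain through which they can also start apoptosis or necroptosis. In the marrow, myeloid cells are both a source of ligands such as TNF and BAFF and a target of them.

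On the scale of the deposited log2 values, GFP_plus cells had lower transcripts of the receptors Cd40 (2.17-fold) and Tnfrsf1b (1.68-fold) and higher transcripts of the death receptor Fas (1.58-fold), of the receptor Tnfrsf1a (1.22-fold) and of the ligand Tnfsf13b (1.27-fold). On this scale the 2 TNF receptors moved in opposite directions between the same samples, Tnfrsf1a up and Tnfrsf1b down. Tnf itself, Tnfsf14, Tnfrsf14 and Tnfrsf21 did not pass the test by their brightest probe set, and Tnfsf10 was too dim to be tested. With the arrays recentred on their bacterial poly-A control RNAs, the differences of Tnfrsf1a and Tnfsf13b turned negative and that of Fas stayed positive without passing. By their brightest probe sets, the directions of Cd40, Tnfrsf1b and Fas held under every scaling tried.

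Testing was limited to probe sets brighter than the array median on 3 or more of the 6 arrays, a level that 16 of the 19 reached. A gene is described by its brightest probe set over all arrays unless another is named. GFP_plus was compared with GFP_min by limma over all tested probe sets, and a gene passed at a Benjamini-Hochberg adjusted p under 0.05. Of the 9 tested members, 3 were higher and 2 lower in GFP_plus. Of all 10810 genes tested, 48.7% passed, 21.0% being higher and 27.6% lower. The members' 5 of 9 is a share close to that background. The groups did not overlap in 7 of the 9, 4 higher and 3 lower in GFP_plus, beside 59.3% of all genes (27.2% higher and 32.1% lower). The median difference was 0.20 over the 9 tested members and 0.0023 over all genes.

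The array medians lay between 2.82 and 2.88. The correlation of values was 0.996 to 0.997 for arrays of the same group and 0.978 to 0.982 for a GFP_plus with a GFP_min array. Hdc, on whose reporter the cells were sorted, was 12.01, 12.06 and 11.95 in GFP_plus and 11.22, 11.16 and 11.19 in GFP_min. Itgam, which encodes CD11b, was between 11.72 and 11.97 in GFP_plus and between 11.44 and 11.85 in GFP_min, and the neutrophil genes S100a8 (14.88 in GFP_plus and 14.87 in GFP_min) and S100a9 (14.88 and 14.90) were close to the top of the scale in both groups.

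Other cell types' markers moved between the same groups. All 11 tested monocyte markers were lower in GFP_plus, where their mean per array was 6.91 to 7.04, against 11.93 to 12.01 in GFP_min. Among them were the fractalkine receptor gene Cx3cr1 (4.07 against 10.39) and Ms4a6b (5.94 against 12.14). Of 4 tested dendritic cell markers 3 were lower, among them Cd209a (2.43 in GFP_plus, below the array medians, against 7.11) and Flt3 (2.88 against 6.54). All 5 tested basophil and mast cell markers were higher, among them the protease genes Mcpt8 (7.62 against 3.41) and Cpa3 (3.99 against 2.01). Both tested eosinophil markers were also higher, Prg2 (6.51 against 3.17) and Siglecf (8.51 against 7.25). The 4 other eosinophil markers with a probe set, Epx, Prg3, Ccr3 and Il5ra, were too dim to be tested. Of 11 tested neutrophil markers 6 were higher, Elane (9.50 against 7.78) and Mpo (12.83 against 11.34) by most. Of 4 B cell markers only Cd79b passed, downward (5.04 against 5.75), and the next largest difference was that of Ebf1 (3.80 against 3.39). Of 3 T and NK cell markers, Gzma (3.30 against 5.20) and Klrd1 (3.38 against 4.22) were lower. No erythroid marker was bright enough to be tested. Of 3 platelet markers 2 were higher, Gp1bb (4.31 against 3.89) among them, and Pf4 (3.19 against 2.78) did not pass. Cpa3, Fcer1a and Itga2b reached the level needed for testing only in GFP_plus, and Cd209a and Siglech only in GFP_min, so that their direction was set by the filter. Siglech (2.71 against 2.97) did not pass. The 3′ to 5′ signal gap of the Gapdh control, a sign of RNA quality, averaged 0.635 in GFP_plus and 0.315 in GFP_min, and that of the beta-actin control 0.868 in GFP_plus and 0.807 in GFP_min. The poly-A controls averaged 5.84 to 5.95 in GFP_plus and 5.41 to 5.64 in GFP_min, and ribosomal protein genes 11.03 to 11.07 and 11.56 to 11.59. The part of these cells and controls in the members' differences was not tested, and in sorted bulk samples fewer cells of a type and less RNA per cell cannot be told apart.

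The promoters of 4 members are shown. These are both TNF receptors, Fas, the largest rise, and Tnf, the founding ligand, which did not pass. The TNF receptors differed in opposite directions on the deposited scale, while Tnfrsf1a turned to −0.12 with poly-A centring. Cd40, which fell most, is not shown because no RefSeq window was at hand for it. Each window runs 5′ to 3′ from 250 bases before the RefSeq start of the gene to 50 after it (build GRCm38.p6), and RefSeq windows were at hand for 9 of the 10 members. Capitals mark matches, on either strand, to the GC box GGGCGG, the PU.1 core GAGGAA, the TATA box TATAAA, the C/EBP motif TTGCNNAA or the NF-κB consensus. These occur in 35.7%, 28.3%, 13.6%, 10.8% and 4.51% of 32851 windows of the same length.
Tnfrsf1a, chr6:125349473-125349772, plus strand: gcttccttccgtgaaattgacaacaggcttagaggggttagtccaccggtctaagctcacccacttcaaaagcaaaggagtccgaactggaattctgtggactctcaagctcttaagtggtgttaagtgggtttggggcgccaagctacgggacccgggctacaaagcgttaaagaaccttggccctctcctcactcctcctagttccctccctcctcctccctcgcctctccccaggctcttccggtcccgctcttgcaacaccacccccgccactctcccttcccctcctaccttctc
Tnfrsf1b, chr4:145246821-145247120, minus strand: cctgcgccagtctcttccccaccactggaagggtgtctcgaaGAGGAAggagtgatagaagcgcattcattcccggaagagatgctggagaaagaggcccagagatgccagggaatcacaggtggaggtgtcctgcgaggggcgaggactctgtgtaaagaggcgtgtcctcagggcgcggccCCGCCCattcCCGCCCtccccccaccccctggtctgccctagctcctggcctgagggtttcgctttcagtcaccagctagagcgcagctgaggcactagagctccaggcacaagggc
Fas, chr19:34290409-34290708, plus strand: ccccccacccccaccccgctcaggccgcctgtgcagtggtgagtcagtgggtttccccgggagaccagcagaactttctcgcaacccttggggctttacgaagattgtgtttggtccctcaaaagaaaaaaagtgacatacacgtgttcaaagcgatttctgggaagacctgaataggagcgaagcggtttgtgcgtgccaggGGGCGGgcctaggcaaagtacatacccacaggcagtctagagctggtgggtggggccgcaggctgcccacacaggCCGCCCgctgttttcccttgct
Tnf, chr17:35201958-35202257, minus strand: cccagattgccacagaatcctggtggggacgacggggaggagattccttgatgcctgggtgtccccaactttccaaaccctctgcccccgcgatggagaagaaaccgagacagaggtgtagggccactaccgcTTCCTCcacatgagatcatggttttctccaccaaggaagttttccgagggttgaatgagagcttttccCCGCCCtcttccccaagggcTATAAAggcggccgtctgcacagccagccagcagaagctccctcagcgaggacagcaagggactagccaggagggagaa
The Tnfrsf1a window held none of the 5 motifs. The Tnfrsf1b window held 2 GC boxes and 1 PU.1 core, the Fas window 2 GC boxes, and the Tnf window 1 GC box, 1 PU.1 core and 1 TATA box, whose first base lay 29 bases before the start. No matches overlapped. These are matches of letters and not sites of binding, and a missing match says only that these letters are not in the window.

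Of the ligands, Tnfsf13b encodes BAFF, the survival factor of B cells, and is made by myeloid cells. Its brightest probe set had 10.18, 10.24 and 10.17 on the GFP_plus arrays, against 9.87, 9.93 and 9.75 on the GFP_min arrays. All GFP_plus values were higher, by a mean of 0.35 (SE 0.072, limma adjusted p = 0.00313), a difference that turned to −0.057 with poly-A centring. The remaining probe sets, 1445251_at and 1458047_at, differed by 0.30 and 0.28 with overlapping groups and adjusted p-values of 0.155 and 0.253. With 1 array left out, 1445251_at differed by 0.19 (without GFP_min a) to 0.45 (without GFP_min c), and 1458047_at by 0.053 (without GFP_min b) to 0.40 (without GFP_min a), and neither passed.

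Tnf encodes the founding cytokine of the family, which macrophages, monocytes and neutrophils release after stimulation. It had 5.37, 5.31 and 5.20 in GFP_plus, against 5.05, 5.12 and 5.10 in GFP_min. The groups did not overlap, but the difference of 0.20 (SE 0.13, 95% interval −0.086 to 0.49) did not pass limma's test (adjusted p = 0.229). It passed with quantile normalization (0.41, adjusted p = 0.0251) and with centring on tested probe sets (0.41, 0.0210) or ribosomal protein genes (0.73, 0.000670), and was −0.20 with poly-A centring.

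Tnfsf14 encodes LIGHT, a ligand of the receptors that Tnfrsf14 and Ltbr encode. It had 8.79, 8.65 and 8.70 in GFP_plus, against 8.12, 8.80 and 7.80 in GFP_min. GFP_min replicate b, the array with the differing description, lay above every GFP_plus array, while GFP_min a and c lay below them all. The difference of 0.47 (SE 0.21) did not pass limma's test (adjusted p = 0.0897), but without GFP_min b it was 0.75 and passed (adjusted p = 0.000943), and without GFP_min c it was 0.25 (0.298). Over all alternatives that kept every array its adjusted p ran up to 0.726. The dimmer probe set 1421588_at differed by 0.028 (adjusted p = 0.902).

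Tnfsf10, which encodes the death ligand TRAIL, had 3 probe sets, none bright enough for the test. The brightest of them had 2.72, 2.51 and 2.67 in GFP_plus, all below the array medians, against 2.78, 2.88 and 2.95 in GFP_min, of which 2 exceeded them. The remaining probe sets were below the median of every array in both groups.

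**Figure D1:**
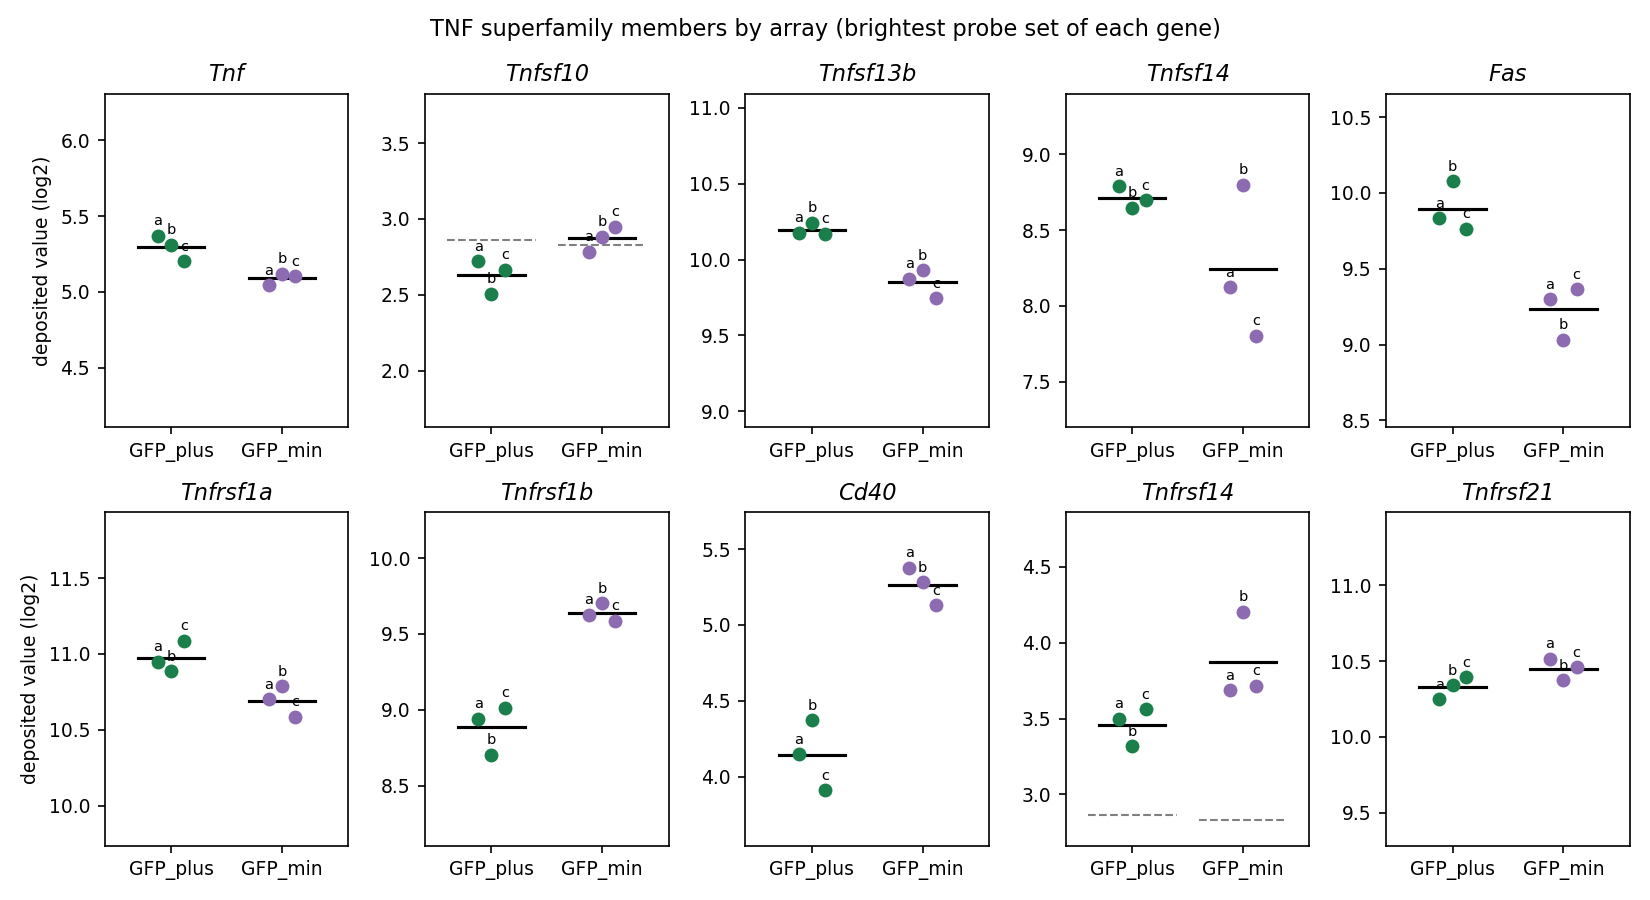
Deposited log2 value (y axis, the same span in each panel) of the brightest probe set of each of the 10 members on the 3 GFP_plus and 3 GFP_min arrays, with replicate letters. Black bars are group means and dashed grey lines the mean array median of a group, drawn where it falls within a panel. Cd40 and Tnfrsf1b lie lower and Fas higher in GFP_plus without overlap, and Tnfsf14 shows GFP_min b (8.80) apart from GFP_min a and c.

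Of the receptors, Tnfrsf1a encodes TNFR1, the widely expressed death domain receptor of TNF, and Tnfrsf1b encodes TNFR2, which has no death domain, signals through TRAF2 and is found mainly on leukocytes and endothelium. Tnfrsf1a had 10.95, 10.89 and 11.09 in GFP_plus, against 10.70, 10.79 and 10.59 in GFP_min. Every GFP_plus array was above every GFP_min array, by a mean of 0.28 (SE 0.075, limma adjusted p = 0.0119). That call was lost without GFP_min c (0.23, adjusted p = 0.0530) and with the replicate letter taken as a block (adjusted p = 0.0531). The difference was −0.12 with poly-A centring.

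Tnfrsf1b had 8.94, 8.70 and 9.01 in GFP_plus, against 9.63, 9.70 and 9.59 in GFP_min. All GFP_plus arrays were lower, by a mean difference of −0.75 (SE 0.095, limma adjusted p = 0.000149). It passed as a fall under each scaling, from −0.23 with ribosomal centring to −1.16 with poly-A centring. The dim probe set 1448951_at differed by −0.19 with overlapping groups (adjusted p = 0.317). Its difference was 0.0094 with centring on tested probe sets and 0.33 with ribosomal centring, and it passed in neither.

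The unequal change of the TNF receptors does not depend on centring, which adds the same constant to both. With quantile normalization, Tnfrsf1a differed by 0.26 and Tnfrsf1b by −0.76. These are the brightest probe sets, and the dim probe set 1448951_at of Tnfrsf1b differed by −0.19 on the deposited scale. The value of Tnfrsf1a minus that of Tnfrsf1b on the same array was 2.01, 2.18 and 2.07 in GFP_plus, against 1.08, 1.09 and 1.00 in GFP_min. The gap was thus wider in GFP_plus by 1.04, where its SD was 0.088 in GFP_plus and 0.048 in GFP_min (n = 3 each). Only this change between groups can be read, since the gap itself also holds the brightness of each probe set. This pair was chosen after the values were seen and was given no test.

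Fas encodes the death receptor of Fas ligand and is found on neutrophils and monocytes. It had 9.83, 10.08 and 9.76 in GFP_plus, against 9.30, 9.03 and 9.36 in GFP_min. All GFP_plus arrays were higher, by 0.66 on average (SE 0.11, limma adjusted p = 0.000946). The difference was larger than that of 94.8% of all genes tested. It was 0.26 with poly-A centring and did not pass there (adjusted p = 0.0998).

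Cd40 encodes the costimulatory receptor of CD40 ligand on B cells, dendritic cells and macrophages. Its brightest probe set had 4.15, 4.37 and 3.91 in GFP_plus, against 5.38, 5.28 and 5.13 in GFP_min. The groups lay apart by −1.12 (SE 0.16, limma adjusted p = 0.000298), and 7.53% of all genes tested had a lower difference. The probe set 1439221_s_at differed by −0.84 (adjusted p = 0.00275), and with ribosomal centring by −0.32, where it did not pass (0.0995).

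The probe set 1460415_a_at of Cd40 had 2.37, 2.18 and 2.38 in GFP_plus, against 4.22, 4.50 and 4.23 in GFP_min. On the GFP_plus arrays it never exceeded the array median, so that it was at least 2.74-fold lower there, with a measured difference of −2.00. It reached the level needed for testing only in GFP_min, so that its direction was set by the filter. The fall accompanied those of the monocyte and dendritic cell markers above, and their part in it was not tested.

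Tnfrsf14 encodes HVEM, which binds LIGHT and the inhibitory receptor BTLA. It had 3.50, 3.32 and 3.56 in GFP_plus, against 3.69, 4.21 and 3.72 in GFP_min. The groups did not overlap, and GFP_min b was again the highest array. The difference of −0.41 (SE 0.16) did not pass limma's test (adjusted p = 0.0593), and without GFP_min b it was −0.24 (0.180). It was 0.11 with ribosomal centring (adjusted p = 0.532).

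Tnfrsf21 encodes death receptor 6. Its brightest probe set had 10.25, 10.34 and 10.39 in GFP_plus, against 10.52, 10.37 and 10.46 in GFP_min. The groups overlapped, with a difference of −0.12 (95% interval −0.27 to 0.032, limma adjusted p = 0.178) that was 0.080 with centring on tested probe sets and 0.40 with ribosomal centring, where it passed. The dimmer 1422740_at differed by −0.38 without overlap and passed (adjusted p = 0.0255), but it lost that call without any 1 of GFP_plus b or c or GFP_min b or c.

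**Figure D2:**
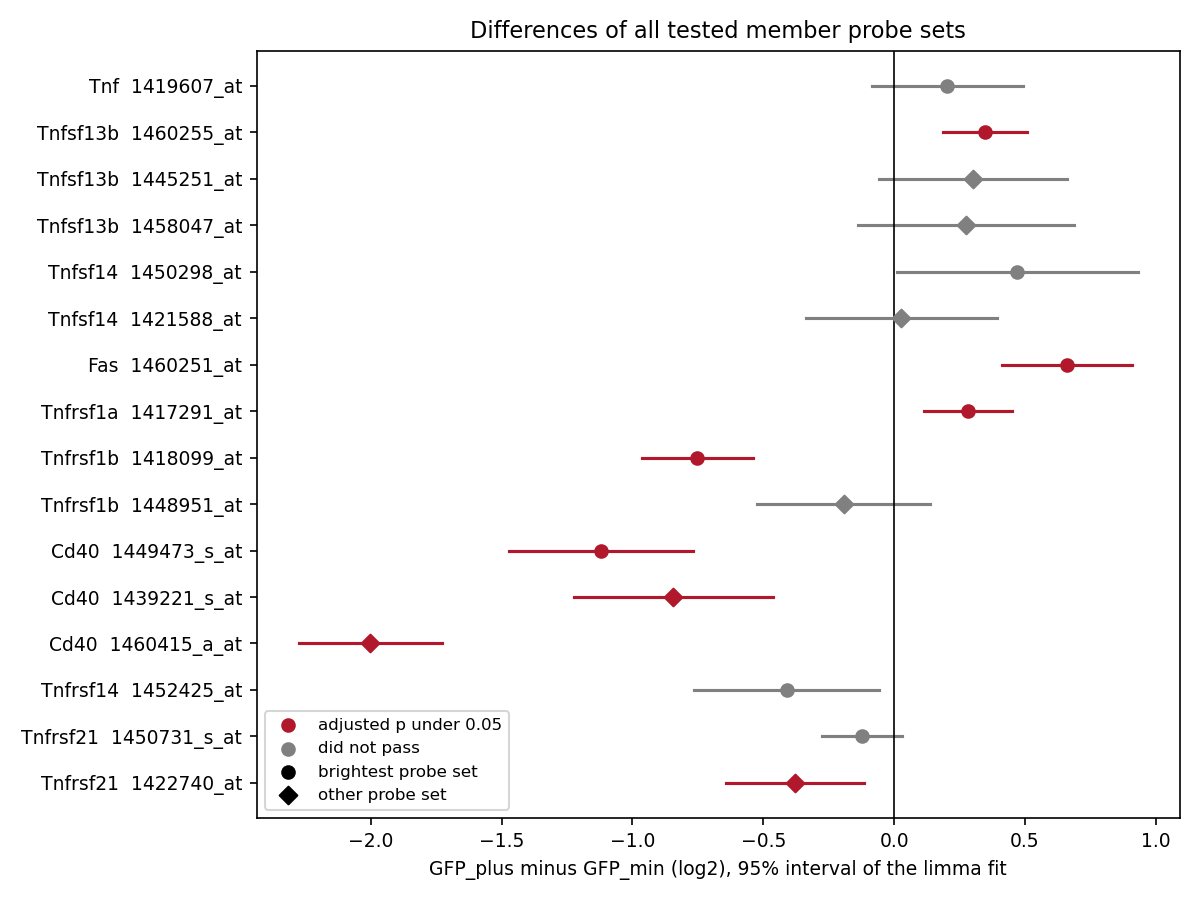
GFP_plus minus GFP_min (x axis, log2) of all 16 tested member probe sets with 95% intervals of the limma fit. Circles are the brightest probe set of a gene and diamonds the others, in red where the adjusted p was under 0.05. The 3 Cd40 probe sets lie between −2.00 and −0.84, the lowest of them, 1460415_a_at, testable only through GFP_min, and the largest positive difference is that of Fas, 0.66.

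How the arrays are set against each other mattered for the smaller differences. Centring on the median of tested probe sets added 0.20 to the median difference of all genes, centring on ribosomal protein genes added 0.52, and centring on poly-A controls changed it by −0.41. Quantile normalization added 0.047. Of the 5 members that passed, 2, Cd40 and Tnfrsf1b, passed in the same direction under each of the 5 scalings. Fas passed under all but poly-A centring. Relative to all genes, the position of a member does not change with centring. A higher difference than that of Fas was found in 5.22% of all genes, than that of Tnfsf14 in 10.5%, of Tnfsf13b in 17.4%, of Tnfrsf1a in 22.3% and of Tnf in 29.3%. A lower difference than that of Tnfrsf1b was found in 12.99%, than that of Tnfrsf14 in 23.6% and of Tnfrsf21 in 39.3%.

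**Figure D3:**
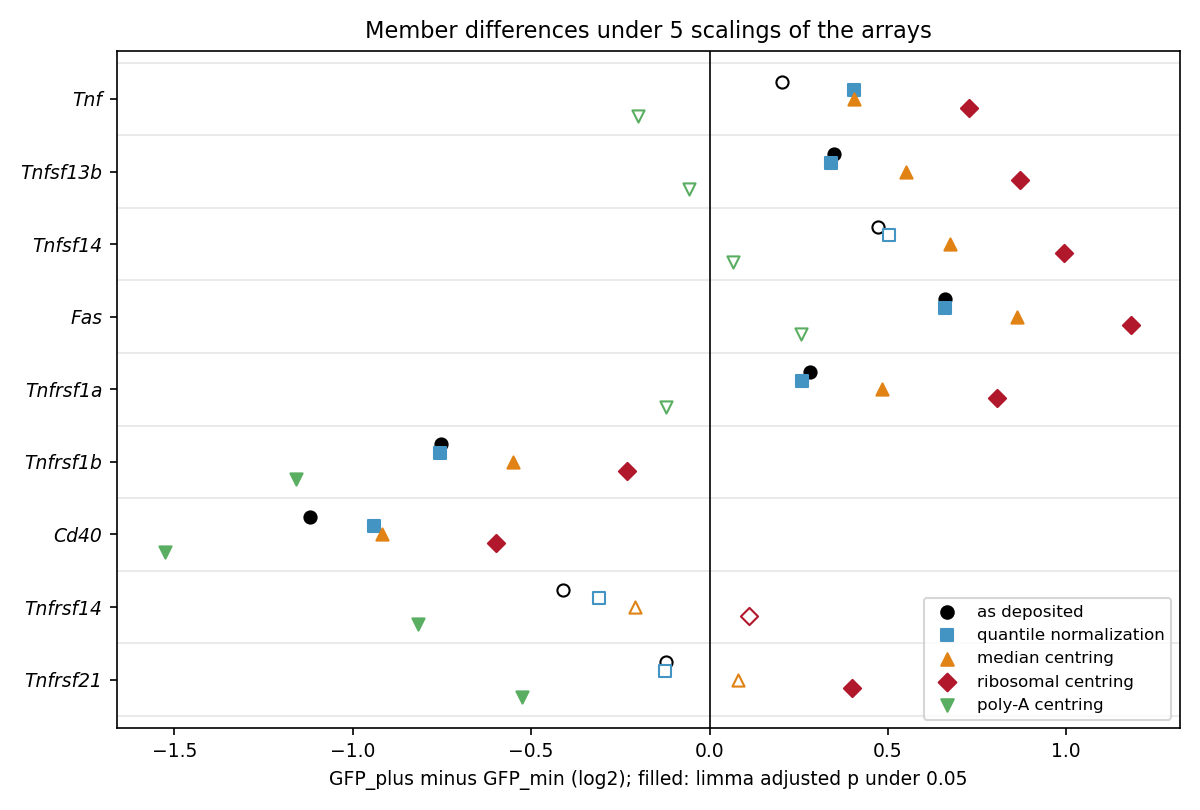
GFP_plus minus GFP_min (x axis, log2) of the 9 tested members under 5 scalings of the arrays, filled where limma's adjusted p was under 0.05. Cd40 and Tnfrsf1b stay negative and filled throughout, Fas stays positive, and Tnf, Tnfsf13b and Tnfrsf1a turn negative with poly-A centring.

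Of 36 other ligands and receptors of the superfamily, 31 had a probe set and 10 were bright enough to be tested. Of these 3 were higher and 3 lower in GFP_plus, beside 21.0% and 27.6% of all genes, with a median difference of 0.15 against 0.0023 over all genes. The largest change was the fall of Tnfrsf13b, which encodes TACI, a receptor of BAFF. It had 5.80, 5.17 and 6.23 in GFP_plus, against 8.45, 8.86 and 8.46 in GFP_min, a 7.25-fold lower level (−2.86, SE 0.24, limma adjusted p = 9.33e-06). It fell under each scaling. The other lower genes were dim: Tnfsf9, the ligand of 4-1BB, differed by −0.61 (2.84 in GFP_plus against 3.45 in GFP_min) and Tnfrsf11a, which encodes RANK, by −0.53 (2.73 against 3.26). Both exceeded the median of all 3 GFP_min arrays, Tnfsf9 that of 2 GFP_plus arrays and Tnfrsf11a that of 1. With ribosomal centring neither passed.

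Ltb, which encodes lymphotoxin beta, had 12.07, 11.95 and 12.05 in GFP_plus, against 11.33, 11.40 and 11.42 in GFP_min. It rose by 0.64 (SE 0.053, limma adjusted p = 9.66e-06). The receptor genes Tnfrsf18, which encodes GITR, and Relt rose by 0.59 and 0.58. None of the 3 passed with poly-A centring, where they differed by 0.23, 0.18 and 0.18. Ligand genes known as partners of the members, Fasl for Fas and Cd40lg for CD40, were too dim to be tested, as was Tnfrsf10b, the TRAIL receptor gene. These 3 were named after their values were seen.

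Of 43 genes of TNF signalling, 37 had a probe set and 35 were tested, of which 6 were higher and 8 lower, beside 21.0% and 27.6% of all genes. The median difference was −0.011, and the 21 others did not pass.

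In the branch that leads to cell death, 3 of 6 genes fell and 1 rose, with a median of −0.54, where 27.6% of all genes fell and 21.0% rose. Mlkl, which encodes the executioner of necroptosis, was 5.15, 5.57 and 5.64 in GFP_plus, against 6.25, 6.58 and 6.65 in GFP_min (−1.04, SE 0.17, limma adjusted p = 0.000882). Ripk3, the kinase that activates MLKL, differed by −0.89 (5.84 ± 0.062 against 6.73 ± 0.053, SD, n = 3 each). Casp8, the initiator caspase that death receptors recruit, differed by −0.79 (8.79 ± 0.092 against 9.57 ± 0.066). All 3 passed as falls under each scaling. Bid, which carries the death signal to mitochondria, was higher by 0.25, a call lost without GFP_plus a or GFP_min a, and was −0.16 with poly-A centring. Fadd (−0.29) and Cflar (0.14), which encodes a decoy of caspase-8, did not pass.

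Among 10 adaptors and ubiquitin enzymes 2 were higher and 1 lower, beside 21.0% and 27.6% of all genes. Rnf31, the catalytic subunit of the linear ubiquitin ligase LUBAC, rose by 0.67 (6.70 ± 0.095 in GFP_plus against 6.03 ± 0.15 in GFP_min) and did not pass with poly-A centring (0.26). Otulin, counted with the feedback inhibitors, encodes the enzyme that removes linear ubiquitin chains. It had 5.02, 5.06 and 5.21 in GFP_plus, against 6.03, 6.12 and 6.58 in GFP_min, and fell by 1.14 (SE 0.17, limma adjusted p = 0.000394). Rnf31 minus Otulin on the same array was wider in GFP_plus by 1.81, a pair chosen after the values were seen and not tested. Birc2, which encodes the ubiquitin ligase cIAP1, was higher by 0.31, a call lost without GFP_plus a or GFP_min a and a direction that turned with poly-A centring (−0.094). Traf5, a TRAF adaptor, was lower by its brightest probe set (−0.63), while its dimmer probe set differed by 0.26 and did not pass. With ribosomal centring the first of these was −0.11 and did not pass.

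Among 10 kinase and NF-κB genes, Map3k5, which encodes the stress kinase ASK1, rose by 0.70 (11.26 ± 0.059 against 10.56 ± 0.020) and Ikbkb, which encodes IKKβ, fell by 0.87 (10.26 ± 0.054 against 11.13 ± 0.018, limma adjusted p = 2.08e-06). Both calls held under each scaling. In Ikbkb 3 of 5 tested probe sets passed as falls, and the others differed by 0.070 and 0.18 without passing. The feedback inhibitor gene Nfkbia, which encodes IκBα, was higher by 0.26 and was −0.15 with poly-A centring. The feedback gene Tnfaip3, which encodes A20, had −0.080 and did not pass.

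TNF is shed by the protease ADAM17, whose maturation and activity depend on the rhomboid-like protein iRhom2, encoded by Rhbdf2. Rhbdf2 had 8.78, 8.71 and 8.82 in GFP_plus, against 7.93, 7.82 and 7.67 in GFP_min. It rose 1.95-fold (0.97, SE 0.099, limma adjusted p = 3.80e-05), also under each scaling. Adam17, named after its values were seen, had 9.62, 9.65 and 9.62 in GFP_plus, against 9.94, 9.93 and 9.95 in GFP_min. Its brightest probe set fell by 0.31 (adjusted p = 0.00314), its remaining 2 did not pass, and with ribosomal centring the difference was 0.21. On the same array, Rhbdf2 minus Adam17 was 1.28 wider in GFP_plus, a pair chosen after the values were seen and not tested.

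**Figure D4:**
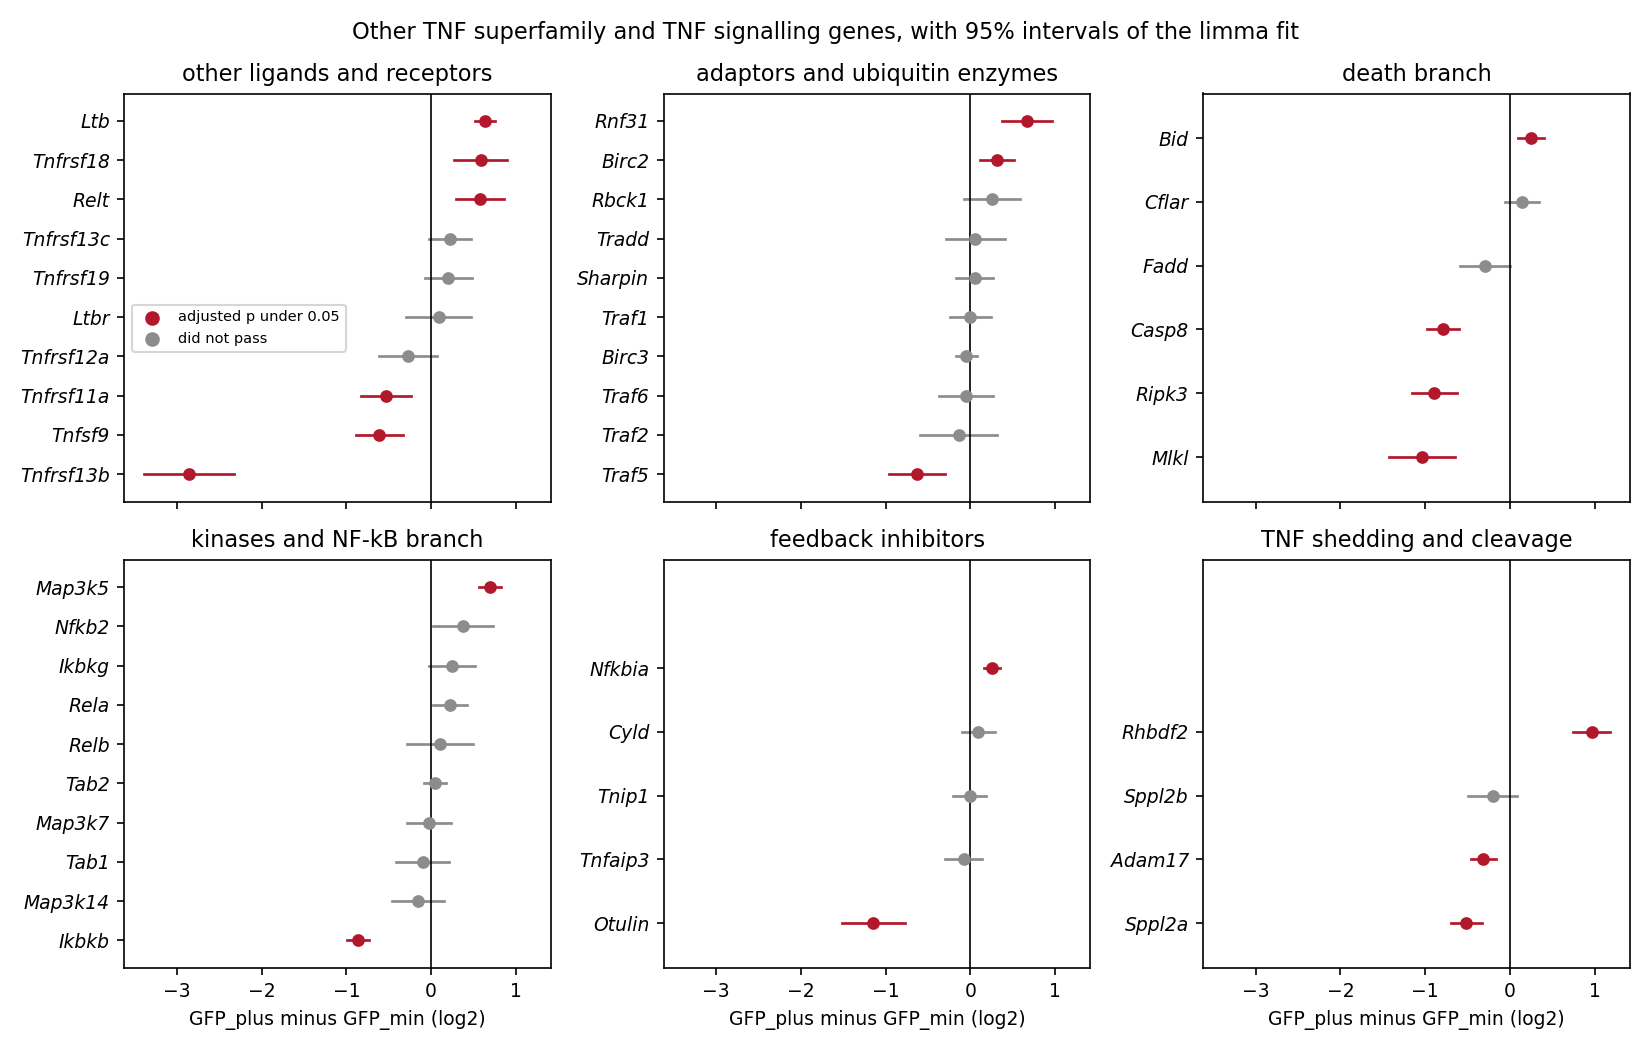
GFP_plus minus GFP_min (x axis, log2) with 95% intervals of the limma fit for the 10 other superfamily genes and 35 TNF signalling genes tested, grouped by role, in red where the adjusted p was under 0.05. Tnfrsf13b lies farthest from 0 (−2.86), Casp8, Ripk3 and Mlkl lie together on the negative side, and Rhbdf2 (0.97) is the largest rise.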

How the data were processed

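Total RNA of the sorted cells was labelled with biotin by a 3' IVT kit for Affymetrix arrays, per the labels' protocols. The deposited table gives the authors' log2 values of 45101 probe sets on 6 arrays. GCRMA is the tool that the submitters' processing notes name, with neither version nor settings. The log2 scale was read from the range of the values, and they were used as deposited.

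Probe sets were named from the platform annotation, with symbols updated through a RefSeq table (GRCm38.p6): 34945 had 1 symbol, 932 several and 9160 none. Without 64 control probe sets, 22956 passed the level filter and stood for 10810 genes. limma 3.58.1 in R 4.3.3 (lmFit, eBayes with an intensity trend) tested GFP_plus minus GFP_min, adjusted over all tested probe sets by Benjamini-Hochberg. A group that never exceeded its array medians was set to those medians, and its fold is then a lower bound. Members, lists and tests were chosen with earlier results of these data known. The named genes are all members, up to 6 other superfamily and 6 signalling genes in each direction that passed without overlap, the 2 largest differences of each marker list, and Hdc. Fadd, Cflar, Tnfaip3, Itgam, S100a8, S100a9 and others so marked were named after their values were seen.

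Alternatives changed the filter, normalization, variance model, array weights, probe sets of a gene and sample set, or took the replicate letter as a block. Tested on simulated data of this comparison (10810 genes, 200 of them changed), the fit recovered 41% of changes of 0.5 log2 and 88% of changes of 1 log2, with 7 unchanged genes called. In the data themselves 48.7% of all genes passed, a far larger share than was changed in the simulation. The recovered shares therefore do not carry over to this comparison. Precision is limited by having 3 arrays a group. The plots used matplotlib 3.10.9 (Python 3.11.15).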

Additional observations from a re-analysis of the deposited data

How the results depend on the processing

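Of 144 member differences recomputed under the alternatives, 54 left out 1 array and 90 changed another choice. With 1 array left out, no member changed direction, Tnfrsf1a lost its call once and Tnfsf14 gained one. The ranges were 0.23 to 0.33 for Tnfrsf1a, 0.25 to 0.75 for Tnfsf14, 2 to 4 members higher and 2 lower. For all genes 1747 to 2084 were higher and 2676 to 2772 lower. The dim Tnfsf14 probe set 1421588_at turned to −0.086 without GFP_plus a, −0.028 without GFP_min a and −0.047 without GFP_min c, in a range up to 0.16.

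Centring decided most other changes, since it adds a constant to every difference. With poly-A centring, members counted 0 higher and 4 lower, other superfamily genes 0 higher, signalling genes 2 higher and 22 lower, and all genes 420 higher and 6028 lower. Tnf was then −0.20, Tnfrsf1a −0.12, Tnfsf13b −0.057, Fas 0.26, Tnfrsf14 −0.82 and Tnfrsf21 −0.53, and the dim probe sets 1445251_at and 1458047_at of Tnfsf13b and 1421588_at of Tnfsf14 were −0.10, −0.13 and −0.38. With ribosomal centring, members counted 6 higher, other superfamily genes 6 higher and 1 lower, signalling genes 26 higher and 5 lower, and all genes 7321 higher and 1228 lower. Tnf was then 0.73, Tnfsf14 0.99, Tnfrsf14 0.11 and Tnfrsf21 0.40, and the probe sets 1448951_at of Tnfrsf1b and 1422740_at of Tnfrsf21 were 0.33 and 0.14. With centring on tested probe sets, members counted 5 higher, other superfamily genes 5, signalling genes 13 and all genes 4472. Tnf was then 0.41, Tnfsf14 0.67, Tnfrsf21 0.080 and 1448951_at 0.0094. Genes that were higher made up 43.2% of all that passed on the deposited scale, 50.2% with quantile normalization, 68.1%, 85.6% and 6.51% with centring on tested probe sets, ribosomal genes and poly-A controls. Quantile normalization raised Tnf to 0.41.

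Array weights gave Tnfrsf21 −0.17 and Tnfsf14 0.66, both passing. With the mean of a gene's probe sets 4 members were lower, Tnfrsf14 (−0.41) and Tnfrsf21 (−0.25) being added. With the filter on all 6 arrays 1 other superfamily gene was lower, since fewer genes were tested. Arrays sharing a replicate letter did not deviate together (correlations −0.18, −0.30 and −0.22). With so few arrays a group, these correlations cannot decide whether samples of the same letter share a mouse, which is not stated. With the letter as a block 2 members were higher, 2 lower, and 1737 and 2603 of all genes, and Tnfrsf1a (0.28) had an adjusted p of 0.0531. The cause of the remaining changes was not tested. Signal over background limits Tnfsf10, Tnfrsf14 and the dim probe sets.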
